A study of Mus musculus with 36 samples.

Results

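The genes described here are 40 mitosis genes, chosen by name for their roles in cell division, by a rule that uses no measured value, though with earlier results of these data known. They were followed through RNA sequencing of mouse cells that lack or retain Zrsr2, a splicing factor that recognises the 3′ end of introns removed by the minor spliceosome. Each library was deposited as read counts at 219945 introns, which lie in 31890 genes of the GENCODE M21 annotation. The 40 genes have 648 of these introns. The level of a gene is given as spliced counts, the reads joined across its introns, summed over the introns and expressed per 1000000 spliced counts of the library (CPM).

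The 36 libraries fall into 14 groups, all from mice of the C57BL/6 background. Zrsr2 KO cells (genotype label Zrsr2-deficient) and WT cells were compared in 3 sorted progenitor types: the common myeloid type (CMP), the type restricted to granulocytes and monocytes (GMP) and that restricted to megakaryocytes and red cells (MEP), with 3 male KO mice and 3 male WT littermates each. KO and WT embryonic fibroblasts (MEF) came from 3 male embryos each. Lin-Kit+ names bone marrow cells by the stem cell factor receptor Kit and the absence of markers of mature blood lineages. Their libraries here also held markers of mature cells, given below. The cells were cultured and carried 1 of 3 short hairpins: sh1 or sh10 against Zrsr1, a close relative of Zrsr2, or a control hairpin. These cells were KO or WT, with 1 library of each group in each of 2 experiments. The KO allele, the ages, the hairpin sequences and whether the cultures of the experiments came from different mice were not given in the sources used here, so p-values reflect variation among these libraries only.

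Zrsr2 itself lay between 0 and 0.0800 CPM in KO progenitors, between 0 and 0.460 CPM in KO MEF and between 0.0887 and 1.52 CPM in KO Lin-Kit+ cells, against 19.2 to 34.2 CPM in WT libraries. No intron of Zrsr1 was among those used here, so its knockdown was not analysed here. Spliced counts per library ranged between 44083233 and 84832431 for progenitors, from 43514139 to 61124920 for MEF, from 30481450 to 43345548 in the first Lin-Kit+ experiment and from 36025510 to 41957110 in the second. Lin-Kit+ experiment 2 stood apart in coverage: among introns with at least 20 reads, 24.6% to 31.0% had no read at one of the exon-intron boundaries, against 7.86% to 12.8% in experiment 1.

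Mitosis is driven by cyclin A2 and B-type cyclins bound to Cdk1, with the kinases Plk1 and Aurora A and B. The chromosomal passenger complex and the kinetochore tie chromosomes to the spindle, the spindle checkpoint delays anaphase until all are attached, and the centralspindlin proteins Kif23 and Racgap1 direct cytokinesis. Transcripts of these genes accumulate in the G2 and M phases of cycling cells. Many of their promoters carry a cell cycle homology region, bound in human cells by the DREAM repressor and by the activating MuvB complexes with B-Myb and FoxM1, beside CCAAT boxes bound by NF-Y.

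The letters of both motifs were searched in the promoters of the members. Promoters from 250 bases before to 50 after the start were present in the RefSeq table of build GRCm38.p6 for 34 of the 40 members. A cell cycle homology region, searched as TTTGAA or TTCGAA on both strands, was present in 28 of these 34 members (82.4%), against 21.7% of the 27025 genes and 19.2% of the 32851 promoters in the table. CCAAT, on both strands, was present in 25 of 34 (73.5%), against 41.1% of genes and 37.4% of promoters, and 23 of 34 (67.6%) held both motifs, against 8.61% of genes and 7.52% of promoters. Matches of the 2 motifs were counted independently and may share letters at their ends. These matches are descriptions of the letters and not measurements of binding. 5 promoters are shown for genes whose levels recur in the results: Cdk1 and Ccnb1, the kinase and cyclin of mitotic entry, the kinase Plk1, and Cenpa and Kif23, the members that differed most between progenitors. Capitals mark TTTGAA, and CCAAT or its reverse complement ATTGG.

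Cdk1 (chr10:69352863-69353162, minus strand): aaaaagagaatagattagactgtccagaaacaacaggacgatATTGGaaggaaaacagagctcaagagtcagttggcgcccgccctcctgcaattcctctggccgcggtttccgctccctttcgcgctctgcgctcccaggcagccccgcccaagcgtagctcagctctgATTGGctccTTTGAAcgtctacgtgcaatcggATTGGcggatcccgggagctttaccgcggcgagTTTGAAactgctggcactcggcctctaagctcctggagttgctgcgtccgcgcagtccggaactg
Ccnb1 (chr13:100786437-100786736, minus strand): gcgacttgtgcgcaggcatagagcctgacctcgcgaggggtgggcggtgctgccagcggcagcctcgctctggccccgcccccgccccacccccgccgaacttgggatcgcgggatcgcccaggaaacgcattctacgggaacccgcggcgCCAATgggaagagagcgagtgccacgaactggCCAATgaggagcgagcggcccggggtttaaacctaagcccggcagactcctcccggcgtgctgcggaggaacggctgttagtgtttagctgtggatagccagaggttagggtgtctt
Plk1 (chr7:122159185-122159484, plus strand): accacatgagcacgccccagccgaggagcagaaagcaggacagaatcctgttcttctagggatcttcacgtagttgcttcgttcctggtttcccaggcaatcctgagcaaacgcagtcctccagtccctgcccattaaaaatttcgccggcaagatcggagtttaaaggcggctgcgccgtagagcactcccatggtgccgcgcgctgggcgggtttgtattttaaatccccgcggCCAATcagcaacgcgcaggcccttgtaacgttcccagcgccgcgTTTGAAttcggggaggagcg
Cenpa (chr5:30666636-30666935, plus strand): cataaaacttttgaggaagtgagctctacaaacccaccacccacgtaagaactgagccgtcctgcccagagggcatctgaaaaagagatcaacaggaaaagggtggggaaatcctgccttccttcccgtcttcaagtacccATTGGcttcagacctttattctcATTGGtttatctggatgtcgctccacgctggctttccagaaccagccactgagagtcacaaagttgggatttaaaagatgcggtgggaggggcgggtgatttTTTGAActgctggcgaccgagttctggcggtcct
Kif23 (chr9:61946750-61947049, minus strand): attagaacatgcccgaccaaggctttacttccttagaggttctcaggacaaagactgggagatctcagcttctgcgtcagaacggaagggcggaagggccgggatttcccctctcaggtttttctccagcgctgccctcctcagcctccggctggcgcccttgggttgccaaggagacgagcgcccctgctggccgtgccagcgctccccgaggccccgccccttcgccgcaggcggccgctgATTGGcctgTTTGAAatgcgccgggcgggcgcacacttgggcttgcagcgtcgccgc

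The match nearest to the start began at -15 in Cdk1, at 2 in Kif23, at 16 in Cenpa and at 30 in Plk1, counted from 0 at the first transcribed base. The Ccnb1 window held 2 CCAAT boxes and no match to the cell cycle homology letters.

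The 40 genes together took 0.153% to 0.779% of the spliced counts of a library. In the progenitors their summed level averaged 6949 ± 409 CPM in KO CMP against 7191 ± 587 in WT CMP, 6479 ± 749 in KO GMP against 6373 ± 324 in WT GMP, and 6711 ± 245 in KO MEP against 6689 ± 487 in WT MEP (SD, n = 3 each). All 18 progenitor libraries lay between 5623 and 7786 CPM, with KO and WT ranges that overlapped in each cell type. The order of the cell types depended on the scaling. In CPM, WT MEP averaged 6689 against 7191 CPM in WT CMP, whereas scaling by the trimmed mean of M-values (TMM), which all tests used, gave 6917 against 6426. The TMM scaling moved this contrast by 0.21 on the log2 scale. It moved WT GMP against WT CMP by 0.12, WT MEF against WT progenitors by 0.14 and the hairpins against control in WT Lin-Kit+ cells by 0.10, and no called member had the opposite direction in CPM in these comparisons.

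MEF had a summed level of 2343 ± 834 CPM in KO and 2426 ± 614 CPM in WT (SD, n = 3 each), with single embryos at 1534, 2296 and 3200 in KO and 1801, 2448 and 3029 in WT. All 6 lay below every progenitor library. In Lin-Kit+ cells of experiment 1 the level was 4495 and 4971 CPM with sh1 and sh10 in KO cells against 7016 with the control hairpin, and 5057 and 4967 in WT cells against 7517. In experiment 2 it was 2396 and 2091 CPM in KO cells against 3884, and 2294 and 2833 in WT cells against 4482. Both hairpins were thus below the control within each genotype and experiment, and experiment 2 was below experiment 1 in every group, at 0.421 to 0.596 times its level, with all 40 members lower. The experiment was therefore kept as a block in every Lin-Kit+ fit.

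**Figure D1:**
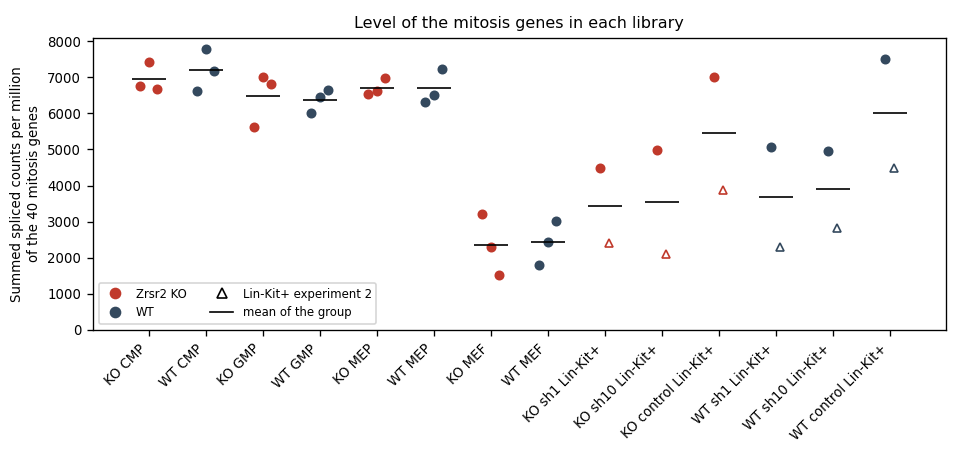
Summed level of the 40 mitosis genes (CPM) in each of the 36 libraries, with KO groups in red, WT groups in dark blue and Lin-Kit+ experiment 2 as open triangles. Horizontal lines are group means. Progenitor libraries sit between 5623 and 7786, MEF between 1534 and 3200, and in Lin-Kit+ cells the Zrsr1 hairpin libraries lie below the control of their own experiment.

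Levels of single members span a wide range when given as the median CPM per intron, which allows genes with different numbers of introns to be compared. In the 9 WT progenitor libraries the highest were Ccna2 (cyclin A2) at 32.0 ± 5.49, Ube2c (the ubiquitin-conjugating enzyme of the anaphase-promoting complex) at 31.5 ± 5.07, Top2a (topoisomerase II alpha) at 29.6 ± 4.59 and Cdk1 at 28.6 ± 2.60 (SD over libraries). The lowest were the kinetochore proteins Cenpf at 1.47 ± 0.332 and Cenpe at 2.64 ± 0.338. Neighbours at the top of this order did not differ beyond their spread.

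Zrsr1 hairpins were compared with the control hairpin within each genotype, a comparison that asks what hairpins against Zrsr1 do with and without Zrsr2. The mitosis genes were lower with the hairpins in both genotypes. In KO cells 32 of the 40 members fell and none rose, at an adjusted p below 0.05 (edgeR quasi-likelihood test with Benjamini-Hochberg adjustment over 17828 genes). Over all genes 4.38% were called lower and 4.62% higher. In WT cells 28 members fell and none rose, where 4.11% of all genes were called lower and 4.64% higher. The median log2 change over the 40 members was -0.62 in KO and -0.61 in WT, against -0.01 and -0.03 over all genes tested, and all 40 estimates were below 0 in both genotypes.

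27 genes were called lower in both genotypes, which is 27 of the 32 in KO and of the 28 in WT. Aurka, Nuf2, Plk1, Spc24 and Spc25 were called in KO only and Cenpe in WT only. Ccnb2, Cdca8, Cenpa, Cenpf, Hmmr, Ndc80 and Ube2c were called in neither. These differences in calling do not show a difference between the genotypes. The test of the hairpin effect in KO minus that in WT called no member, where it called 0% of all genes (0 of 17828, 530 at an unadjusted p below 0.05, 29 with DESeq2 and 0 with limma-voom). Its lowest estimate among the members was Spc24 at -0.51 and its highest Mki67 at 0.35 (SE 0.17, unadjusted p = 0.0714).

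Among the cyclins and Cdk1, 3 of 4 members fell in each genotype. Cdk1, the mitotic kinase itself, had 170.0 and 86.4 CPM with sh1 in experiments 1 and 2 and 165 and 93.4 with sh10 in KO cells, against 256 and 179.9 with the control hairpin. WT cells had 186 and 103 CPM with sh1 and 158 and 105 with sh10, against 262 and 198 with the control. Every hairpin library was below the control library of its experiment, and the log2 change was -0.72 (SE 0.12, adjusted p = 0.00755, edgeR) in KO and -0.67 (SE 0.12, adjusted p = 0.0103) in WT. Ccnb1 (cyclin B1) had 106 and 43.0 CPM with sh1 and 122 and 41.3 with sh10 in KO cells, against 169 and 71.0 with the control. The WT values were 122 and 37.7 CPM with sh1 and 114 and 50.7 with sh10, against 169 and 78.5. Its log2 change was -0.57 in each genotype. Ccna2 fell by 0.84 in KO and 0.61 in WT on the log2 scale, while Ccnb2 (cyclin B2) was at -0.38 (adjusted p = 0.139, edgeR) and -0.32 (adjusted p = 0.213).

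Both mitotic kinases outside the passenger complex, Plk1 and Aurka, fell in KO cells and neither passed the test in WT cells. Plk1 had 59.8 and 37.9 CPM with sh1 and 65.1 and 36.5 with sh10 in KO cells, against 102 and 60.4 with the control. In WT cells it had 75.6 and 39.4 CPM with sh1 and 68.9 and 52.6 with sh10, against 103 and 61.9. The groups did not overlap within an experiment in either genotype, and the log2 change was -0.62 (SE 0.12, adjusted p = 0.0155, edgeR) in KO and -0.37 (SE 0.13, adjusted p = 0.112) in WT.

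In the chromosomal passenger complex Aurkb, Birc5 and Incenp fell in both genotypes and Cdca8 (borealin) did not pass the test in either. Aurkb, the Aurora B kinase of the complex, had 67.0 and 32.1 CPM with sh1 and 82.7 and 37.8 with sh10 in KO cells, against 134 and 77.7 with the control. WT cells had 80.1 and 34.1 CPM with sh1 and 85.7 and 53.1 with sh10, against 146 and 85.0. All 8 hairpin libraries lay below their controls, and the KO change of -0.92 (SE 0.13, adjusted p = 0.00356, edgeR) was the lowest of the 40 members. Cdca8 had 153 and 93.1 CPM with sh1 and 163 and 83.4 with sh10 in KO cells, against 165 and 109.5 with the control. The WT values were 167 and 73.5 CPM with sh1 and 160.5 and 104 with sh10, against 173 and 116. Its hairpin libraries were also lower than their controls in every pair, by less: -0.11 in KO and -0.13 in WT (SE 0.13 each), the smallest changes of the 40.

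Of the 7 spindle checkpoint and anaphase genes, Bub1, Bub1b, Cdc20, Espl1, Mad2l1 and Ttk fell in both genotypes and Ube2c was the exception, at -0.45 in KO and -0.52 in WT. Ttk (the Mps1 kinase that starts checkpoint signalling) had 46.3 and 21.5 CPM with sh1 and 53.7 and 25.3 with sh10 in KO cells, against 75.0 and 43.6 with the control. In WT cells it had 49.5 and 19.0 CPM with sh1 and 49.1 and 27.6 with sh10, against 76.3 and 56.0. The WT change was -0.85 (SE 0.16, adjusted p = 0.0126, edgeR) and the KO change -0.66 (SE 0.16, adjusted p = 0.0343).

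The 8 kinetochore and centromere genes had the fewest calls among the larger groups: Knl1, Nuf2, Spc24 and Spc25 fell in KO cells, and Cenpe and Knl1 in WT cells. Spc24, a subunit of the Ndc80 complex that holds microtubules, had low summed counts, with only 2 listed introns. Its median CPM per intron in WT progenitors was 15.8, so the gene was not among the lowest by that measure. It had 11.9 and 6.48 CPM with sh1 and 8.37 and 3.83 with sh10 in KO cells, against 17.5 and 10.3 with the control. WT cells had 16.4 and 5.63 CPM with sh1 and 19.99 and 13.4 with sh10, against 24.8 and 12.1, so that sh10 was above the control in experiment 2. Its KO change of -0.85 (SE 0.21, adjusted p = 0.0377, edgeR) was called in only 4 of 15 alternative settings, and the WT change was -0.34 (SE 0.21, adjusted p = 0.414).

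Of the 7 kinesins and spindle proteins, Kif11, Kif15, Kif2c, Kif4, Nusap1 and Tpx2 fell in both genotypes, and Hmmr did not pass the test in either. Kif2c (the microtubule-depolymerising kinesin MCAK) had 89.0 and 44.5 CPM with sh1 and 75.6 and 33.3 with sh10 in KO cells, against 141 and 84.1 with the control. The WT values were 107 and 56.5 CPM with sh1 and 71.3 and 34.4 with sh10, against 151 and 104. Its change was -0.87 (SE 0.11, adjusted p = 0.00256, edgeR) in KO and -0.91 (SE 0.11, adjusted p = 0.00194) in WT, where it was the lowest of the 40. Kif11 (the Eg5 motor that separates spindle poles) had 123 and 66.4 CPM with sh1 and 165 and 59.4 with sh10 in KO cells, against 254 and 129 with the control. In WT cells it had 162 and 64.8 CPM with sh1 and 160.2 and 77.4 with sh10, against 268 and 159. The hairpin libraries did not reach the control of their experiment, with changes of -0.85 in KO and -0.84 in WT (SE 0.12 each, adjusted p = 0.00403 and 0.00424, edgeR).

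All 6 cytokinesis genes (Anln, Ect2, Kif20a, Kif23, Prc1 and Racgap1) fell in both genotypes, with changes from -0.84 to -0.56 in KO and from -0.76 to -0.45 in WT. Both genes of chromosome structure fell as well. Top2a had 671 and 341 CPM with sh1 and 835 and 295 with sh10 in KO cells, against 1082 and 531 with the control. WT cells had 796 and 340.1 CPM with sh1 and 798 and 418 with sh10, against 1204 and 689. Its change was -0.55 (SE 0.11) in KO and -0.63 (SE 0.11) in WT. Mki67, the proliferation antigen Ki-67 that coats mitotic chromosomes, had 119.5 and 44.2 CPM with sh1 and 121 and 31.3 with sh10 in KO cells, against 162 and 59.2 with the control. The WT values were 104 and 43.2 CPM with sh1 and 146 and 40.4 with sh10, against 212 and 87.6. Its change was -0.46 (SE 0.12, adjusted p = 0.0452, edgeR) in KO and -0.82 (SE 0.12, adjusted p = 0.00498) in WT.

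**Figure D2:**
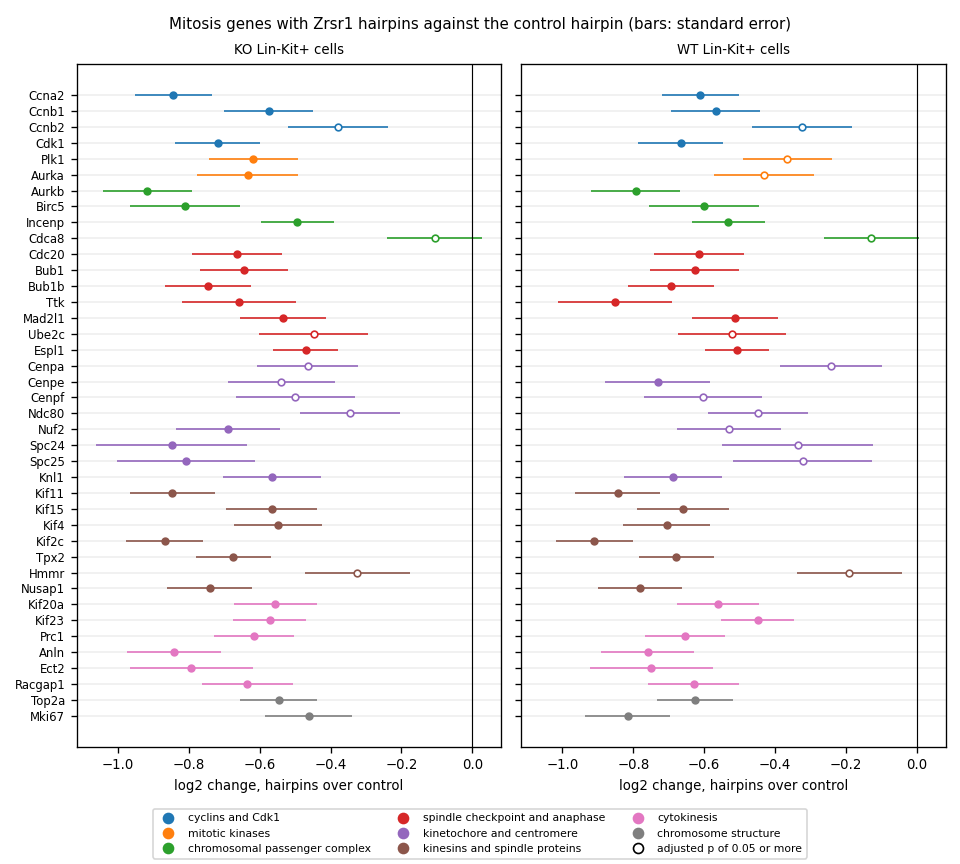
log2 change of each mitosis gene with the Zrsr1 hairpins over the control hairpin, in KO (left) and WT (right) Lin-Kit+ cells, coloured by role, with standard errors as bars and filled points at an adjusted p below 0.05. All 40 points lie left of 0 in both panels, with 32 filled in KO and 28 in WT, and Cdca8 lies nearest to 0.

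Pairing each hairpin library with the control of its genotype and experiment gave 8 pairs. In each genotype and experiment sh1 and sh10 share 1 control library, so the pairs are not independent. 37 members were lower in all 8 pairs and all 40 in at least 7. The summed level was 51.2% to 70.8% of the control, with KO pairs at 53.8% to 70.8% and WT pairs at 51.2% to 67.3%. The calls rest on the experiment block: without it no member was called in either genotype, as was no gene at all. With each experiment fitted alone, sh1 and sh10 formed 1 group against 1 control library per genotype, too few libraries to judge calls. The medians were -0.57 in experiment 1 and -0.70 in experiment 2 for KO and -0.54 and -0.69 for WT. The control library of experiment 2 carried most of the calls: without it 2 members were called in KO and 1 in WT. Without the control library of experiment 1 the counts were 12 in KO and 15 in WT, without the KO sh1 library of experiment 1 18, and without the KO sh10 library of experiment 2 21. With sh1 as the only hairpin 19 members were called in KO.

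Cell type markers changed beside the mitosis genes, where 4.62% of all genes rose and 4.38% fell in KO. In WT 4.64% rose and 4.11% fell. Of 10 macrophage markers, 8 rose in KO and 7 in WT cells, and the mannose receptor gene Mrc1 rose by 2.92 and 2.06. Their summed level in experiments 1 and 2 was 2983 and 7353 CPM with sh1 and 2695 and 9724 with sh10 in KO cells, against 1709 and 4182 with the control. In WT cells it was 2134 and 7597 CPM with sh1 and 2198 and 5919 with sh10, against 1329 and 4187. None of Adgre1, C1qa, C1qb and Mertk, which define macrophages, was at 0 in a Lin-Kit+ library. The summed level of the macrophage markers was higher in the same libraries, and in the same experiment, in which the mitosis genes were lower. Single markers differed. Adgre1, C1qa and C1qb averaged above the control with both hairpins in both genotypes. Mertk averaged below the control with sh10 in WT cells, and above it with sh1 in WT cells and with both hairpins in KO cells. The progenitor marker Cd34 fell by 1.41 in KO and 1.62 in WT on the log2 scale, and of 9 granulocyte-monocyte markers 5 fell in KO and 2 in WT, Ctsg and Elane in both. Of 10 neutrophil markers 2 rose in KO and 4 in WT, Ngp by 1.33 and 1.27. The hairpins differed here. S100a8 averaged 1255 CPM with sh1 and 3239 with sh10 in KO cells, against 1212 with the control. In WT cells it averaged 1087 and 3848 CPM against 1139. Camp averaged above the control with both hairpins in both genotypes. Control hairpin libraries held markers of mature cells too. S100a8 lay at 1086 to 1337 CPM in KO and 719 to 1560 in WT controls. The mast cell gene Cma1 averaged 613 CPM with sh1 and 387 with sh10 in KO cells, against 1142 with the control. In WT cells it averaged 576 and 112 CPM against 971. Its control libraries spanned 220 to 2064 CPM in KO and 183 to 1758 in WT. Tpsb2, another mast cell gene, averaged above the control with sh1 and below it with sh10 in both genotypes. The part of these markers in the fall of the mitosis genes was not tested. In bulk RNA fewer dividing cells and less mitotic RNA per cell cannot be told apart.

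Other genes of the cell cycle gave these counts, where 4.38% of all genes were called lower in KO and 4.11% in WT. Of 74 further mitosis genes with counts, 35 fell in KO and 34 in WT and none rose, with Tacc3, a spindle protein, at -1.37 and -1.23 and Pbk, a mitotic kinase, at -1.05 and -1.31. Of 8 condensin subunits 7 and 6 fell, Smc2 by 0.80 in each genotype. Of 12 cohesin subunits and regulators 3 and 5 fell, the cohesin acetyltransferase Esco2 at -0.65 and -0.74. Of 15 subunits of the anaphase-promoting complex, which marks cyclin B and securin for degradation, 1 fell in each genotype: Anapc5 in KO and Anapc1 in WT. That count is near the share over all genes. Of 35 DNA replication genes 15 and 13 fell, with Rfc4 at -0.75 and -0.69.

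Of 17 transcription factors and cofactors of mitotic genes, 7 fell and 1 rose in KO and 6 fell and 1 rose in WT. Foxm1, the activator of late cell cycle genes, was at -0.67 and -0.81, and Lin54, the MuvB subunit that reads the cell cycle homology region, at -0.63 and -0.60. Mybl2 (B-Myb) fell by 0.71 in KO on the log2 scale. Of 16 cell cycle inhibitors 3 rose in KO and 2 in WT and none fell. Over all genes 4.62% rose and 4.38% fell in KO, and 4.64% rose and 4.11% fell in WT. Cdkn1a, which encodes the Cdk inhibitor p21, rose by 0.93 (adjusted p = 0.0418, edgeR) in KO, and Trp53inp1 rose by 1.05 in KO and 0.92 in WT. The KO values of Mybl2 and Cdkn1a do not show a difference between the genotypes. The test of the hairpin effect in KO minus that in WT called 0 of 17828 genes.

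The hairpins were also set against each other. Of the 40 members 1 differed between sh1 and sh10, where 11.4% of all genes did. Kif2c was higher with sh1 by 0.50 (SE 0.09, adjusted p = 0.007, edgeR), and its CPM was above that with sh10 in each genotype and experiment. Without the KO sh10 library of experiment 1, 3 members were called, and without the WT sh1 library of experiment 1, 4 were. Marker genes moved more: 6 of 10 erythroid, 5 of 10 megakaryocyte and 8 of 10 mast cell markers were higher and 7 of 10 neutrophil markers lower with sh1 than with sh10.

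KO cells were compared with WT cells in every cell type, the genotype question of the study. No member was called in any of the 6 comparisons. The background was as low: 0.0228% of 17563 genes were called in CMP, 0.0171% in GMP, 0.0456% in MEP and 0% of 16735 in MEF. In Lin-Kit+ cells 0.028% of 17828 were called with Zrsr1 hairpins and 0.00561% with the control hairpin. The members' median log2 changes were -0.05 in CMP, 0.03 in GMP, -0.03 in MEP, -0.04 in MEF, -0.07 in Lin-Kit+ cells with Zrsr1 hairpins and -0.05 with the control hairpin. The median standard error of a member was 0.11 in the progenitors, 0.30 in MEF and 0.15 for the control hairpin in Lin-Kit+ cells, so small changes were not detectable in these groups. In MEF no gene was called at all (265 at an unadjusted p below 0.05, 12 with DESeq2 and 0 with limma-voom).

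The members with the smallest unadjusted p were few and small in effect. In CMP, Bub1, a checkpoint kinase, had 127, 144 and 122 CPM in KO against 143, 172 and 148 in WT. The highest KO library was just above the lowest WT library, and the change was -0.24 (SE 0.10, unadjusted p = 0.0328, adjusted p = 0.819, edgeR). Mad2l1, the checkpoint protein that inhibits Cdc20, was at -0.14 in CMP and at -0.15 in MEF. In MEP, Spc25, the partner of Spc24, had 39.5, 39.5 and 39.3 CPM in KO against 32.4, 31.9 and 38.6 in WT, a change of 0.17. Among control hairpin libraries Mki67 was at -0.41 (SE 0.14, unadjusted p = 0.0178, adjusted p = 1, edgeR) and Cenpe at -0.42.

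Spc24 had the lowest estimate of the 40 members in GMP, MEP, MEF and Lin-Kit+ cells with Zrsr1 hairpins. In GMP it had 27.3, 19.1 and 21.4 CPM in KO against 32.8, 33.1 and 24.9 in WT. In MEP it had 24.6, 28.3 and 32.0 CPM in KO against 37.2, 33.7 and 40.6 in WT. All KO MEP libraries were below all WT MEP libraries, while in GMP the ranges overlapped. The changes were -0.42 in GMP (SE 0.15, unadjusted p = 0.0110, adjusted p = 1, edgeR) and -0.42 in MEP (SE 0.15, unadjusted p = 0.0114, adjusted p = 0.820). In CMP the ranges overlapped, with 25.8, 26.9 and 25.2 CPM in KO against 26.8, 29.2 and 25.9 in WT, a change of -0.08. MEF had 2.87, 6.94 and 4.89 CPM in KO against 7.26, 4.50 and 7.10 in WT, a change of -0.34 (SE 0.35). With Zrsr1 hairpins the change was -0.80 (SE 0.18, unadjusted p = 0.00127, adjusted p = 0.444, edgeR), and DESeq2 called it, as the only member, with an adjusted p of 0.0485. In experiments 1 and 2 Spc24 had 8.37 and 3.83 CPM with sh10 in KO cells against 19.99 and 13.4 in WT cells. With sh1 it had 11.9 and 6.48 CPM in KO against 16.4 and 5.63 in WT, so the difference was larger with sh10. None of the edgeR values passed the threshold. Tests of the KO effect between cell types called no member, where 0% of genes were called for GMP minus CMP (0 of 17563, 857 at an unadjusted p below 0.05, 12 with DESeq2 and 0 with limma-voom), 0.0114% for MEP minus CMP and 0.0114% for MEP minus GMP.

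**Figure D3:**
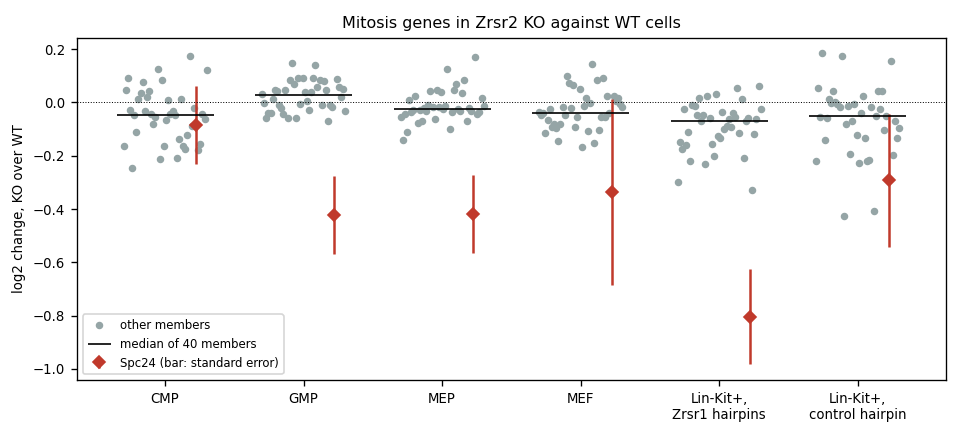
log2 change of each mitosis gene in KO over WT cells in the 6 genotype comparisons. Grey points are members, black lines the median of the 40, and red diamonds Spc24 with its standard error. The medians lie between -0.07 and 0.03, and Spc24 is the lowest point in GMP, MEP, MEF and Lin-Kit+ cells with Zrsr1 hairpins.

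The progenitor types were compared in WT mice. MEP differed most: against CMP 12 members were higher and 6 lower, where 21.2% of all genes were higher and 25.5% lower, and against GMP 11 were higher and 6 lower, where the shares were 21.1% and 24.8%. Without the first WT GMP library, or without the third WT MEP library, 6 members were higher and 5 lower against GMP. GMP against CMP had 3 higher and 3 lower, where 12.5% and 12.3% of genes were. Against these shares the counts of members are near the background. Both MEP comparisons share the MEP libraries and are given side by side. The members did not move as a block: medians were 0.05 against CMP and 0.09 against GMP.

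Marker genes describe what the progenitor libraries held. The 10 erythroid markers summed to 4573 to 5337 CPM in KO MEP and 4806 to 5564 in WT MEP, against 625 to 1478 in WT CMP and 119 to 259 in WT GMP. The 10 megakaryocyte markers summed to 45.5 to 53.1 CPM in KO MEP and 35.8 to 65.6 in WT MEP, against 867 to 1226 in WT CMP. The libraries labelled MEP therefore carried erythroid markers and few megakaryocyte ones, Pf4 lying at 0.381 to 2.20 CPM in WT MEP. The part of this makeup in the differences of the mitosis genes was not tested.

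Cenpa, the histone H3 variant that marks centromeres, was the highest rise. It had 231, 247 and 273 CPM in WT MEP, against 114, 130.0 and 126 in WT CMP and 96.5, 102 and 92.9 in WT GMP. All MEP libraries were above all others, and KO cells had the same order, with 220.4, 252 and 277 CPM in MEP against 128, 148 and 107 in CMP and 93.1, 95.5 and 91.6 in GMP. The WT change was 1.16 against CMP (SE 0.11, adjusted p = 3.97e-07, edgeR) and 1.37 against GMP (SE 0.12, adjusted p = 4.39e-08). It was higher at all 6 of its listed introns, by 0.78 to 1.65 against CMP and 1.20 to 1.66 against GMP. The rise varied between the listed introns, which are numbered in annotated transcripts of 2 and of 4 introns and overlap in part. The first from the 5′ end, 1 of 2, had 33.2 CPM in WT MEP against 12.1 in WT CMP. The last, 4 of 4 in another transcript, had 57.5 against 33.5. These values do not follow a single transcript from end to end.

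Kif23, the kinesin of centralspindlin, was the lowest. It had 58.9, 55.5 and 71.6 CPM in WT MEP, against 159, 194 and 159 in WT CMP and 135, 155 and 160.2 in WT GMP. KO cells had 61.8, 63.2 and 81.6 CPM in MEP, against 169, 179 and 153 in CMP and 119, 168 and 156 in GMP. No MEP library of either genotype reached a CMP or GMP library. The WT change was -1.33 against CMP (SE 0.14, adjusted p = 1.05e-06, edgeR) and -1.27 against GMP (SE 0.14, adjusted p = 1.31e-06), and all 22 introns were lower, by 0.89 to 1.86 against CMP and 0.75 to 1.53 against GMP.

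The partners of Kif23 in cytokinesis were lower too. Racgap1, the other centralspindlin subunit, had 132, 145 and 149 CPM in WT MEP, against 190.2, 233 and 204 in WT CMP and 177, 202 and 205 in WT GMP. Its changes were -0.42 (SE 0.10, adjusted p = 0.00160, edgeR) and -0.45 (SE 0.10, adjusted p = 0.000874). Ect2, the exchange factor that activates RhoA at the cleavage site, had 111, 117 and 127 CPM in WT MEP, against 148, 166 and 153 in WT CMP and 172, 172 and 191 in WT GMP. It was at -0.25 against CMP (adjusted p = 0.0317, edgeR) and -0.59 against GMP (SE 0.09, adjusted p = 5.25e-05). All 18 listed introns of Racgap1 and all 25 of Ect2 were lower in MEP. The cytokinesis genes did not share a direction, however: Anln (anillin) was higher in MEP by 0.35 against CMP and 0.36 against GMP, Kif20a by 0.32 and 0.22, and Prc1 did not pass the test.

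Of the 4 cyclin and Cdk1 genes 3 were higher in MEP in each comparison, and of the kinases Plk1 and Aurka, Plk1 was. Plk1 had 93.1, 99.6 and 119.9 CPM in WT MEP, against 61.1, 67.8 and 70.3 in WT CMP and 73.5, 78.6 and 80.0 in WT GMP. It was above CMP by 0.79 (SE 0.11, adjusted p = 1.07e-05, edgeR) and above GMP by 0.43 (SE 0.11, adjusted p = 0.00261), at all 7 listed introns. Ccna2 had 253, 284 and 337 CPM in WT MEP, against 223, 255 and 266 in WT CMP and 207, 201 and 209 in WT GMP. Its CPM ranges overlapped between MEP and CMP, with log2 changes of 0.37 and 0.51 (SE 0.11 each). Ccnb1 had 147, 177 and 196 CPM in WT MEP, against 124, 139.9 and 148 in WT CMP and 133, 140.3 and 139 in WT GMP. Its lowest MEP library lay just under the highest CMP library, and its changes were 0.48 and 0.34 (adjusted p = 0.00186 and 0.0173, edgeR). Cdk1 had 259, 289.9 and 313 CPM in WT MEP, against 243, 268 and 258 in WT CMP and 263, 292 and 242 in WT GMP. Its ranges overlapped, and it was called against CMP (0.30, adjusted p = 0.0168, edgeR) and not against GMP (0.12).

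Of the other genes, Ube2c was higher than in CMP by 0.60 (SE 0.17) and Spc24 by 0.58 (SE 0.15), at 149, 169.9 and 215 CPM and 37.2, 33.7 and 40.6 CPM in WT MEP, against 115, 139 and 135 and 26.8, 29.2 and 25.9 in WT CMP. Neither passed the test against GMP. Knl1, the kinetochore scaffold, had 110.4, 97.7 and 118 CPM in WT MEP, against 52.0, 65.2 and 81.1 in WT GMP, a change of 0.72 (SE 0.16, adjusted p = 0.00154, edgeR). Mki67 had 151, 143 and 175 CPM in WT MEP, against 90.2, 113 and 134 in WT GMP, a change of 0.48 (SE 0.16, adjusted p = 0.0186). Neither differed between MEP and CMP by the test, where WT CMP had 91.0, 102 and 96.7 CPM of Knl1 and 164, 171 and 146 of Mki67. Nusap1, a spindle microtubule protein, was lowest in MEP, with 104, 100.1 and 99.1 CPM in WT MEP, against 156, 206 and 178 in WT CMP and 117, 125 and 125 in WT GMP. It was at -0.70 against CMP (SE 0.11, adjusted p = 5.21e-05, edgeR) and -0.27 against GMP (adjusted p = 0.0491). Ndc80, the microtubule-binding kinetochore subunit, was at -0.35 against CMP (SE 0.08, adjusted p = 0.00117, edgeR). Kif15 had 181, 169 and 191 CPM in WT MEP, against 210.4, 219.8 and 242 in WT GMP, a change of -0.31 (adjusted p = 0.0135, edgeR). That call was lost without the third WT GMP library or the second WT MEP library. The Ube2c call against CMP was lost without the third WT MEP library, and the Mki67 call against GMP without that library or without the first WT GMP library. Top2a, at 939.9, 897 and 1007 CPM in WT MEP against 1173, 1366 and 1178 in WT CMP and 893, 957 and 1058 in WT GMP, did not pass the test in either comparison.

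Between GMP and CMP, Plk1 was higher in GMP by 0.36 (adjusted p = 0.0203, edgeR), Ect2 by 0.33 and Aurkb by 0.32. Nusap1 was lower by 0.42 (adjusted p = 0.00859, edgeR), Kif4 by 0.36 and Ndc80 by 0.28. Kif4 is a chromosome-bound kinesin. Nusap1 and Ndc80 were called in all 11 alternative settings, and the other calls rested on single libraries. The Plk1 call was lost without WT CMP library 1 or 2 or WT GMP library 2 or 3, the Ect2 call without CMP library 1 or 3 or GMP library 3, the Aurkb call without CMP library 1 or 3 or GMP library 2, and the Kif4 call without CMP library 2 or GMP library 1. Aurkb, which had 150.0, 156 and 140.5 CPM in WT GMP against 118, 144 and 131 in WT CMP, overlapped in CPM.

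**Figure D4:**
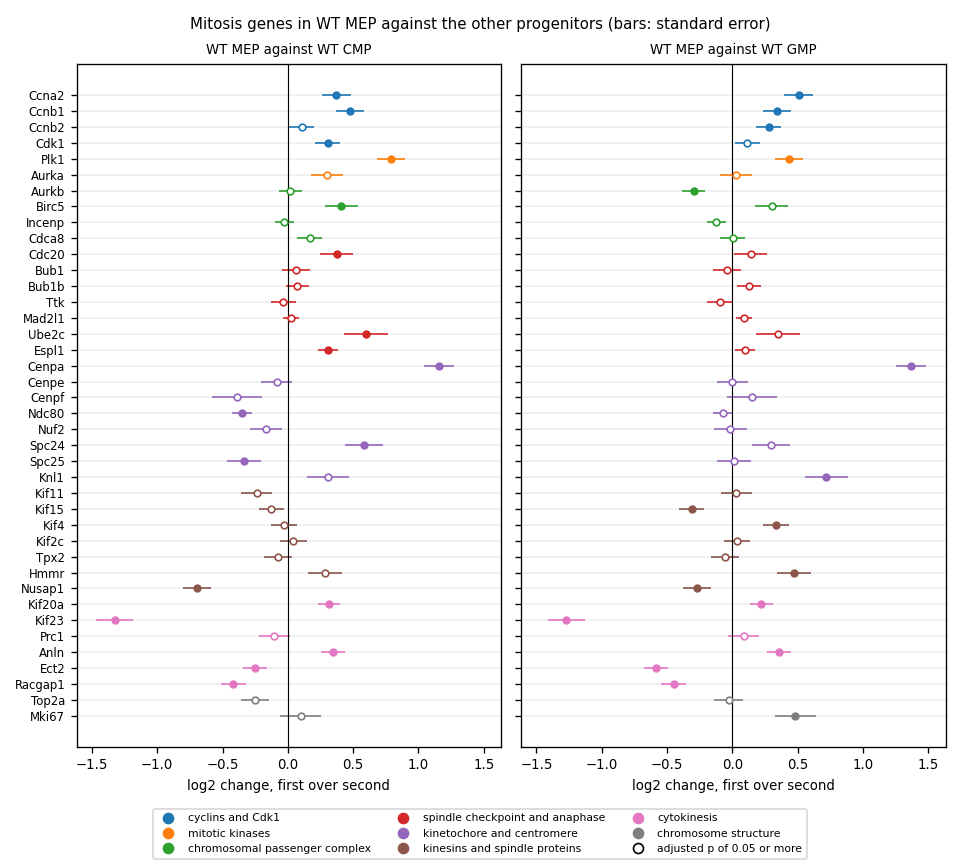
log2 change of each mitosis gene in WT MEP over WT CMP (left) and over WT GMP (right), coloured by role, with standard errors as bars and filled points at an adjusted p below 0.05. Cenpa lies farthest right, at 1.16 and 1.37, and Kif23 farthest left, at -1.33 and -1.27.

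**Figure D5:**
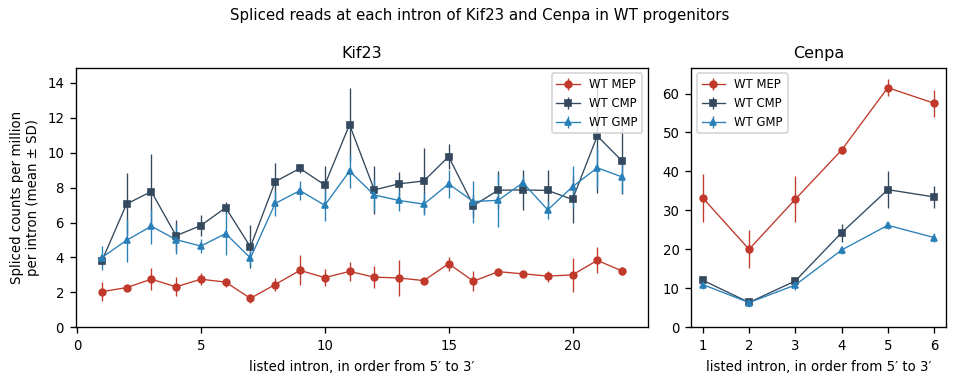
Spliced reads (CPM) at each listed intron of Kif23 (left) and Cenpa (right), from 5′ to 3′, in WT MEP, CMP and GMP (mean ± SD, n = 3 each). The MEP line runs under the others along all 22 introns of Kif23 and over them at all 6 introns of Cenpa. The Cenpa introns come from annotated transcripts of 2 and of 4 introns and overlap in part.

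MEF were set against the mean of the WT progenitors, as a comparison of a cultured adherent cell with blood progenitors. 39 of the 40 members were lower in MEF and none higher, where 29.4% of 19544 genes were lower and 38.9% higher. The median was -1.26, against 0.17 over all genes. Knl1 had 17.8, 11.1 and 16.6 CPM in WT MEF and fell by 2.40 on the log2 scale (SE 0.21, adjusted p = 3.36e-09, edgeR). Kif15, a spindle kinesin, had 48.0, 25.2 and 36.4 CPM in WT MEF and was at -2.35 (SE 0.22). Spc24 was at -2.17 (SE 0.22) and Kif11 at -2.03 (SE 0.19). Every WT MEF library was below every WT progenitor library for these 4 genes. Cdk1 had 135, 91.2 and 117 CPM in WT MEF and was at -1.09 (SE 0.15), and Plk1 had 48.1, 25.8 and 37.6 and was at -0.98 (SE 0.17).

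Anln was the exception, with 161, 80.8 and 108 CPM in WT MEF and a change of -0.08 (SE 0.17, adjusted p = 0.719, edgeR). The next smallest were Kif20a at -0.45 and Racgap1 at -0.46, which like Anln act in cytokinesis. KO MEF had 75.9, 156 and 103 CPM of Anln. Of 74 further mitosis genes 64 were lower and 4 higher, and of 35 DNA replication genes 34 were lower. Fibroblast markers summed to 62803 to 89267 CPM in MEF. All 10 macrophage markers were higher in WT MEF than in WT progenitors, with sums of 488, 711 and 2486 CPM in KO MEF and 359.5, 1505 and 3153 in WT MEF, and their part in the levels of the mitosis genes was not tested.

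Retention of introns is the readout on which the tables were built. It is the deposited percent: reads across an exon-intron boundary as a share of the sum of those reads and 2 times the spliced reads. Of 501 member introns with at least 20 reads in every library, the median over the WT libraries was 1.25%, with 455 below 5% and 9 above 10%. Averages of retention over the WT libraries, here and below, include the WT Lin-Kit+ libraries with Zrsr1 hairpins. No member intron was called in any of the 8 retention comparisons (edgeR diffSpliceDGE with Benjamini-Hochberg adjustment). Over all introns, 0.00642% of 62278 were called for KO against WT in CMP, 0.00803% in GMP, 0.00482% in MEP, 0% of 32573 in MEF (1344 at an unadjusted p below 0.05 and 0 called with limma), and, of 46630 in Lin-Kit+ cells, 0.0429% with Zrsr1 hairpins and 0.00214% with the control hairpin. For hairpins against control 0.00214% were called in WT and 0% in KO cells (2445 at an unadjusted p below 0.05 and 0 called with limma). The tests covered 428 member introns in progenitors, 108 in MEF and 295 in Lin-Kit+ cells. Of these, 19 in CMP, 8 in GMP, 17 in MEP, 0 in MEF, 9 in Lin-Kit+ cells with Zrsr1 hairpins and 5 with the control hairpin had an unadjusted p below 0.05 between the genotypes. For the hairpins there were 11 in KO and 5 in WT. As shares of the member introns tested these were 4.44% in CMP, 1.87% in GMP, 3.97% in MEP, 0% in MEF, 3.05% and 1.69% for KO against WT with Zrsr1 and control hairpins, and 3.73% and 1.69% for the hairpins in KO and WT. Over all introns the shares were 6.05%, 2.62%, 3.96%, 4.13%, 5.31%, 2.88%, 5.24% and 3.21% in the same order, so the members lay near or below the background. On simulated data this intron test made more false calls than its threshold allows, so its p-values may be too small.

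In the progenitors the introns nearest to a call were low in retention. Introns are numbered from 5′ to 3′ within an annotated transcript. Intron 13 of 23 of Anln (chr9:22358303-22358612, mm10) had 0.463%, 0.750% and 1.35% in KO CMP against 0.197%, 0% and 0% in WT CMP, resting on 2, 5 and 10 exon-intron reads against 2, 0 and 0 (adjusted p = 0.421, edgeR). Intron 6 of 21 of Kif11 (chr19:37387436-37390311) had 1.47%, 1.55% and 1.78% in KO GMP against 0.362%, 0.296% and 0.442% in WT GMP. The groups did not overlap, with a log2 difference of 2.04 (SE 0.31, adjusted p = 0.999). Intron 10 of 10 of Nusap1 (chr2:119647199-119648892) had 0.981%, 1.29% and 1.30% in KO MEP against 0.125%, 0.222% and 0.205% in WT MEP (adjusted p = 0.903, edgeR). In each of these types the other intron nearest to a call was lower in KO. Intron 12 of 29 of Kif4 had 0%, 0.210% and 0% in KO CMP against 1.77%, 1.77% and 2.40% in WT CMP. Intron 10 of 17 of Racgap1 had 0% in every KO GMP library against 0.176%, 0% and 0.685% in WT GMP. Intron 18 of 35 of Top2a had 0.308%, 0.159% and 0.0520% in KO MEP against 0.824%, 0.794% and 0.499% in WT MEP. Among 428 introns a few such separations are part of the counts at an unadjusted p given above. In Lin-Kit+ cells some introns nearest to a call had more retention, and they varied between experiments. Intron 7 of 22 of Kif23 (chr9:61932188-61935379) had 6.99% and 16.3% with sh1 in experiments 1 and 2 and 16.3% and 5.16% with sh10 in WT cells, against 5.81% and 0% with the control hairpin (adjusted p = 0.985, edgeR). Intron 10 of 21 of Ttk (chr9:83847253-83850571) had 4.46% and 0% with sh1 and 5% and 0% with sh10 in KO cells, against 5.98% and 14.3% with the control (adjusted p = 0.938, edgeR).

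Mad2l1 intron 1 (chr6:66535600-66535957, 358 bases) was among the introns nearest to a call both in MEF and in Lin-Kit+ cells with Zrsr1 hairpins. It had 6.05%, 3.87% and 2.55% in KO MEF against 2.52%, 2.75% and 1.43% in WT MEF. With sh1 it had 6.27% and 10.9% and with sh10 2.52% and 4.35% in KO Lin-Kit+ cells, against 3.26% and 0.194% with sh1 and 3.03% and 0.752% with sh10 in WT cells. KO was higher than WT with the same hairpin in the same experiment in 3 of 4 pairs, the exception being sh10 in experiment 1, and the log2 difference was 2.15 (SE 0.83, adjusted p = 0.864, edgeR). The other intron nearest to a call with Zrsr1 hairpins, intron 20 of 30 of Espl1, went the other way, at -2.62 (SE 0.99, adjusted p = 0.863, edgeR). It had 1.18% and 0% with sh1 and 0% and 0% with sh10 in KO cells. WT cells had 0.880% and 2.94% with sh1 and 6.72% and 3.85% with sh10.

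The most retained member introns differed in how far their retention varied between groups. The last intron of Top2a (35 of 35, chr11:98993414-98993763) averaged 25.4% over the WT libraries and was between 18.1% and 42.0% in the mean of every group, with 19.0% ± 0.48 in KO MEP against 18.1% ± 1.6 in WT MEP (SD, n = 3 each). In Lin-Kit+ cells it was 24.3% and 26.1% with sh1 and 37.3% and 39.7% with sh10 in KO, against 30.8% and 27.4% with the control. WT cells had 22.8% and 29.5% with sh1 and 35.9% and 48.2% with sh10, against 30.9% and 29.8%. sh10 was above and sh1 below the control in each pair of libraries, and this difference between hairpins was not tested. Intron 17 of Kif11 (chr19:37410634-37411330) averaged 15.7% over the WT libraries, with 8.95% ± 3.3 in WT MEF against 25.3% ± 8.2 in WT CMP (SD, n = 3 each), and lay between 2.64% and 10.6% in the means of the Lin-Kit+ groups. Intron 18 of Kif23 (chr9:61921247-61923904) averaged 12.1%, with 3.79% ± 1.1 in WT MEF. The Kif23 intron was at 15.6% ± 0.82 in WT MEP, against 19.7% ± 2.2 in WT CMP and 18.5% ± 1.4 in WT GMP. In KO Lin-Kit+ cells this intron was at 14.8% and 16.5% with sh1 and 6.46% and 3.33% with sh10, against 5.82% and 0.963% with the control. WT cells had 9.47% and 0% with sh1 and 13.9% and 6.17% with sh10, against 10.4% and 5.99%. The part of this retention in the level of Kif23 was not tested.

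Other genes whose level followed the members were found by correlation of log2 CPM with the members' mean, as a description. Over the 18 progenitor libraries, which share cell types and mice, the closest 8 of 9453 genes were Kif14 (r = 0.86), Dlgap5 (0.81), Ncaph, Ppil4, Sfpq and Spag5 (0.80 each) and Eef1akmt2 and Kif22 (0.79 each). Kif14, Dlgap5, Ncaph, Spag5 and Kif22 have known roles in mitosis, while Ppil4, Sfpq and Eef1akmt2 are in none of the mitosis gene lists used here. The members' own values enter that mean, so their r is not on a par with that of other genes. The members themselves had a median r of 0.57 and as low as -0.04, in libraries whose mean level varied little (SD 0.11 on the log2 scale). Over the 12 Lin-Kit+ libraries, which share experiments and hairpins, the closest 8 of 9906 genes, all at 0.99, were Topbp1, Ncapg, Mcm3, Cnbp, Tubb5, Lmnb1, Hnrnpa2b1 and Rrm1, and the members had a median r of 0.97 with a mean level that varied more (SD 0.62).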

How the data were processed

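Polyadenylated RNA from 36 libraries was prepared with a TruSeq kit (progenitors and MEF) or a NEBNext Ultra kit (Lin-Kit+ cells), per the labels' protocols. Per the file headers, the authors deposited counts, in whole numbers, of reads over both exon-intron boundaries and of spliced reads for each of 219945 introns, with the covered fraction and the retention percent. The percent equals 100 times exon-intron reads over exon-intron plus 2 times spliced reads in every row. Coordinates are on mm10, a build taken from the submitters' processing notes. No aligner, counter or strand setting is named in them (not given in the sources used here), so antisense and overlapping genes cannot be told apart.

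All introns matched GENCODE M21, 1887 of them in more than 1 gene. A read across several introns is counted at each. The deposited spliced counts were summed per gene, expressed as CPM of the library's spliced counts, and tested over all genes with edgeR 4.0.16 in R 4.3.3 (quasi-likelihood test, TMM, filterByExpr, Benjamini-Hochberg, threshold 0.05). All 40 members passed the filter in every fit. Introns were tested with diffSpliceDGE on exon-intron against spliced counts, with sizes from log2 ratios with 0.5 added and limma 3.58.1 standard errors. Lin-Kit+ fits had the experiment as block and weighted sh1 and sh10 equally. Samples of the same experiment deviated together (r = 0.67 to 0.76 over 15 pairs of groups, each with the same r in both experiments because the 2 libraries of a group deviate equally in opposite directions), and the experiment is named in the labels. The cell types of a mouse share that animal by design, with r from -0.13 to 0.25 over 18 pairs. Both tests were checked on simulated data, where the intron test exceeded its rate of false calls.

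The members and gene lists were chosen with earlier results of these data known. Values in every library are given for Ccnb1, Cdk1, Plk1, Top2a and Mki67 and for the called members with the largest changes of each comparison, up to 4 per direction, or the 2 with the smallest p where none was called. Further members were named after their values were seen. Retention was named only at 20 reads or more in every library. Alternatives were DESeq2 1.42.0, limma-voom, other filters, blocks, single hairpins, single experiments and leaving out each library.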

Additional observations from a re-analysis of the deposited data

How the results depend on the processing

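Over all results 349 alternative values kept their side of the threshold or moved by less than 1 SD, 16 gave fewer calls, 5 gave more and no called value changed sign. Values near 0 did change sign: the summed level in KO over WT had the opposite sign in 11 of 36 alternatives over CMP, GMP, MEP and MEF, and the members' median in MEF ran from -0.32 to 0.19. The falls with Zrsr1 hairpins depended on the experiment block, which pairs libraries of the same experiment. Without the replicate block 0 members were called in KO and in WT. Each experiment alone holds 1 control library per genotype, too few to judge calls. With sh1 alone 19 were called in KO. Leaving out each library gave 2 to 32 calls in KO and 1 to 34 in WT. The members' median change stayed between -0.70 and -0.56 in KO and between -0.70 and -0.52 in WT over 15 alternatives each. The log2 ratio of the summed level, which averages libraries over the experiments without a block, was -0.68 in KO and -0.70 in WT, and ran from -1.11 without the control library of experiment 2 to -0.26 without that of experiment 1 in KO, and from -1.07 to -0.33 in WT. For KO against WT with Zrsr1 hairpins DESeq2 called 1 member, Spc24. For sh1 against sh10 DESeq2 called 5 members, limma-voom 2, the fit with no replicate block 0, and leaving out each library 1 to 4. MEP against GMP in WT gave 11 to 17 calls when libraries were left out, 11 without the first WT GMP or the third WT MEP library. A replicate block on the number or the mouse moved no other count by over 1.5 times: with the mouse as block 20 members were called for MEP against CMP, 17 for MEP against GMP and 7 for GMP against CMP. Same-numbered KO and WT libraries are not said to pair, and not every such pair deviated together (r from -0.35 to 0.75). The causes of these changes were not tested. Experiments 1 and 2, with 1 library of each group per experiment, limit the hairpin results, and members such as Spc24 rest on few spliced reads.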

Other observations

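Among genes outside the 40 members, Cep55 changed more between MEP and the other progenitors than any member. Cep55, which recruits the abscission machinery to the midbody at the end of cytokinesis, was at -3.73 in WT MEP against WT CMP (adjusted p = 7.00e-09, edgeR with Benjamini-Hochberg adjustment) and at -3.80 against WT GMP (adjusted p = 3.17e-09). Cdc25b, a phosphatase that activates Cdk1, was at -2.01 against CMP, and Depdc1b at -1.38 against CMP and -1.24 against GMP. Of the 74 further mitosis genes, 17 were higher and 18 lower in MEP against CMP, and 16 higher and 12 lower against GMP. These are 23.0% and 24.3% against CMP, where 21.2% and 25.5% of all genes were called, and 21.6% and 16.2% against GMP, where 21.1% and 24.8% were. Of 35 DNA replication genes 20 (57.1%) were higher and 3 (8.57%) lower against CMP and 21 (60.0%) higher and 3 lower against GMP, among them Cdc6, which loads the replicative helicase, at 1.09 and 1.05. Ccne1 (cyclin E1) was at 2.77 against CMP. The Cdk inhibitor gene Cdkn1a was at -3.32 and -3.92. These genes come from lists chosen with earlier results known, and no test of the lists was made.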
